A study of Mus musculus with 6 samples.

Results

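Thyroid hormone and retinoid X receptor signalling was followed here through 8 genes chosen by symbol: the thyroid hormone receptors Thra and Thrb, the retinoid X receptors Rxra, Rxrb and Rxrg, the deiodinases Dio2 and Dio3, and the hormone transporter Slco1c1. They were chosen with earlier results of these data known. All 8 were found among the 24346 gene symbols of the tables. The RNA came from retinas of mice at postnatal day 12 and was sequenced as 6 stranded mRNA libraries. The control group held 3 libraries with the genotype Panky+/-;Panky-like+/-;Nrl-/-, and the triple-deficient group held 3 libraries with the genotype Panky-/-;Panky-like-/-;Nrl-/-. Both groups lacked Nrl, the factor that sends photoreceptor precursors to the rod fate, so a retina of cone-like photoreceptors was compared with another of the same kind. The controls carried 1 mutant copy of Panky and of Panky-like and are not wild type. The design text speaks of littermates, but no label says that each library is its own animal, so p-values measure only the spread between these samples.

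Thyroid hormone reaches cells through membrane transporters, is activated by the deiodinase Dio2 and is inactivated by Dio3. The active hormone binds the receptors encoded by Thra and Thrb, which sit on DNA mostly as heterodimers with a retinoid X receptor and recruit co-repressors without hormone and co-activators with it. In cones, an isoform of Thrb together with Rxrg sets which opsin is made. It is needed for the middle-wavelength opsin Opn1mw and holds back the short-wavelength opsin Opn1sw in the dorsal retina. The tables hold 1 value per gene and do not separate the cone isoform of Thrb from its other isoforms.

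The receptors of this family recognise the half-site AGGTCA. Windows of 250 bases before annotated starts were available for 7 of the 8 genes, all but Thra, in the RefSeq promoter table for GRCm38.p6, the build called mm10. The half-site was searched on both strands, and it was present in 14.0% of all 32851 such windows. The letters TAATCC, a core recognised by the photoreceptor factor CRX, were in 6.25%, and the direct repeat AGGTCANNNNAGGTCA, which contains the half-site, was in 5 windows, none of them of these genes. Thrb, Rxra and Rxrg each had the half-site in 1 of their 2 windows, and Rxrb, Dio2, Dio3 and Slco1c1 had no match. The lines below show the matches of these receptors and of Opn1sw. Opn1mw and the hormone-responsive gene Klf9 were also searched, with 1 window each, and had no match. No window was available for Hr, another hormone-responsive gene. Each shows 30 bases on the strand of the gene, with the match in capitals, and TGACCT and GGATTA are the reverse complements of the motifs.
Thrb, half-site: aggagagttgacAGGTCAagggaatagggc
Thrb, CRX core: cgtgacgcggcgGGATTAactttgcatggc
Rxra, first half-site: tagaaatgggtgTGACCTgagtaatggtca
Rxra, second half-site: gggtggcaggaaAGGTCAgtcactctctgt
Rxrg, half-site: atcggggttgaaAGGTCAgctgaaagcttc
Opn1sw, first half-site: tccaaagaatatAGGTCAgcatcctccagg
Opn1sw, second half-site: tatccaggtttcTGACCTcaatctcttatc
The Thrb lines lie at chr14:17660764-17660793 and chr14:17660902-17660931 on the plus strand, with matches beginning 184 and 46 bases before the start. Those of Rxra lie at chr2:27709193-27709222 and chr2:27709232-27709261 on the plus strand, 87 and 48 bases before it. The Rxrg line lies at chr1:167618165-167618194 on the plus strand, 88 bases before the start. Those of Opn1sw lie at chr6:29380698-29380727 and chr6:29380628-29380657 on the minus strand, 202 and 132 bases before it. The matched windows of Thrb, Rxra and Rxrg lie inside genes that begin at chr14:17659225, chr2:27676445 and chr1:167598362. For these 3 genes the start meant here is an annotated start within the gene, and their other window had no match. These matches are descriptions of the sequence and were not tested for binding.

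Values are FPKM (fragments counted on a gene, divided by transcript length and by library size) as deposited. Low values moved in steps of 1 fragment, and from these steps the libraries held an estimated 18.2 to 27.2 M fragments. Ankrd33b, taken here to be Panky-like although the labels do not name the gene, was at 33.8 ± 1.45 FPKM in the controls against 1.5 ± 0.265 FPKM with both genes mutant (SD, n = 3). Ankrd33, which is Panky, was at 106 ± 2.97 and 55.6 ± 4.66 FPKM. Nrl transcripts were still counted, at 44.2 ± 5.46 and 52.5 ± 1.16 FPKM, and a single value per gene does not show which exons were read. All 12 markers on a cone list passed the filter on low values. Triple-deficient 3 stood apart in base composition, its deviations from the mean correlating with transcript GC content at Spearman -0.59 across 14216 genes, which are not independent, against 0.07 to 0.30 in the other libraries. Müller glia markers summed to 2077 to 2137 FPKM in controls and to 1883 to 2036 FPKM in the other group, without overlap. Of the 10 Müller glia markers 6 had a log2 change above 0 and 4 below, with a median of 0.006. All triple-deficient values lay below the controls for 1 of the 10, where 5.64% of all genes tested were so placed. Cone markers (6365 to 6499 and 5946 to 6511 FPKM) and rod markers (1799 to 1906 and 1845 to 1904 FPKM) overlapped. The part of these cells in the results was not tested. Lens markers summed to 19.4 FPKM in control 1 and to 2.43 to 3.56 FPKM elsewhere. Of 14325 genes tested with limma, 4 passed an adjusted p of 0.05 (0.0279%), 1 of them higher (0.00698%) and 3 lower (0.0209%).

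The 8 genes spanned a wide range of levels. Thra, the receptor found in most tissues, was far above the others at 109.7 to 122 FPKM, at or above the level of 96.2% of the genes tested. Rxrb, the broadly expressed retinoid X receptor, came next at 27.2 to 31.5 FPKM. Rxrg, the member enriched in cones, was at 24.7 to 28.6 FPKM, and Thrb at 22.4 to 26.6 FPKM. The ranges of Rxrb and Rxrg overlapped, as did those of Rxrg and Thrb, so their order is not separated by the spread between libraries. Dio2 was at 10.4 to 11.7 FPKM and Rxra at 9.60 to 11.1 FPKM, again with overlapping ranges. Slco1c1 was at 2.12 to 3.72 FPKM and Dio3 at 0.0715 to 0.391 FPKM, each apart from its neighbours in this order.

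**Figure D1:**
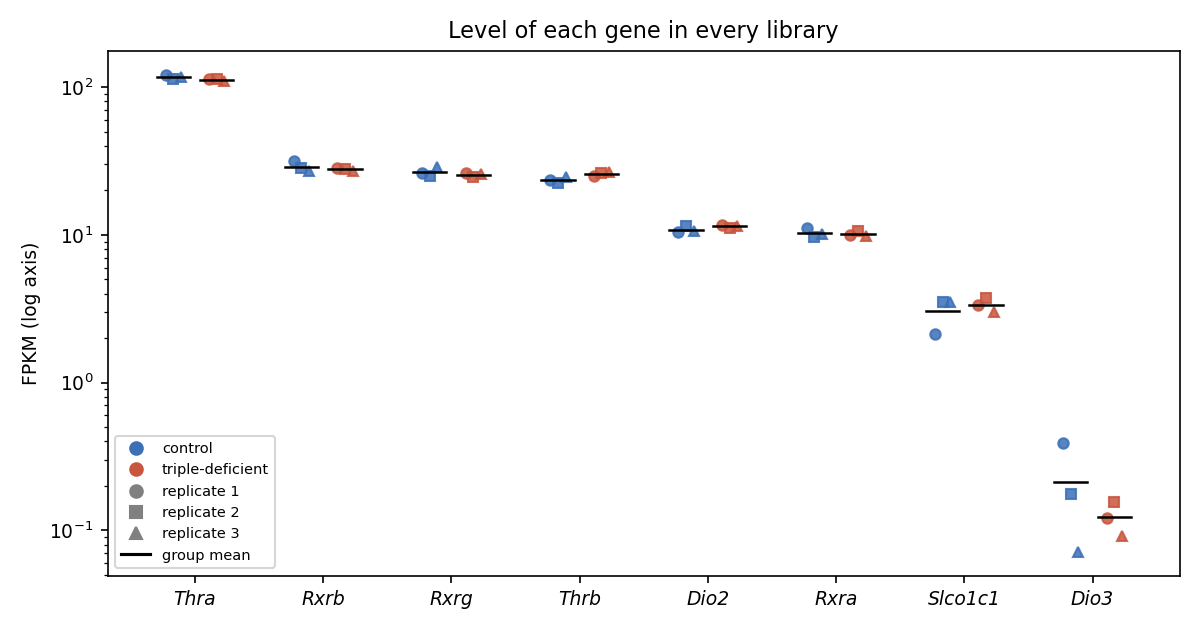
FPKM (log axis) of the 8 genes in every library, ordered by their mean, with controls in blue, triple-deficient libraries in red, a symbol for each replicate number and a line at each group mean. Thra lies near 115 FPKM and Dio3 below 0.4 FPKM, and the triple-deficient points lie above all control points only for Thrb.

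The comparison of genotypes asks whether the loss of Panky and Panky-like goes with a different level of these genes. None of the 7 that passed the filter of 0.5 FPKM on the mean reached an adjusted p below 0.05 (limma adjusted p from 0.921 to 0.993). With 3 libraries in each group this does not exclude a change. At an unadjusted p below 0.05 there was 1 of 7, Thrb, where 5.09% of all genes tested reached that level. Without control 1, control 2, triple-deficient 2 or triple-deficient 3 there were 0, with unadjusted p of 0.0685, 0.119, 0.0944 and 0.0664 for Thrb in limma. The groups did not overlap for 1 of 7, again Thrb and with the triple-deficient group higher, against 4.86% of all genes tested in that direction. The median log2 change of the 7 was -0.01, beside 0.003 over all genes. Each change is a difference of log2(FPKM + 1), triple-deficient minus control, which is smaller than the fold change of FPKM for genes with low values, and intervals are 95% confidence intervals from limma.

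Among the hormone receptors, Thra was at 122, 113 and 118 FPKM in control libraries 1, 2 and 3 and at 114, 113 and 109.7 FPKM in triple-deficient libraries 1, 2 and 3. The groups overlapped, and triple-deficient 3 was the lowest of the 6. Its log2 change was -0.07 (SE 0.045, interval -0.17 to 0.04, limma adjusted p = 0.946). Thra lies on chromosome 11 of GRCm38 (98740776 to 98769006), and 263 of its 4614 exon bases, or 5.70%, also lie in exons of Nr1d1 on the other strand. Nr1d1, a clock repressor of the nuclear receptor family, was at 45.6 ± 0.433 FPKM in the controls against 43.7 ± 3.83 FPKM without Panky and Panky-like (SD, n = 3). The kit marks strand, but whether the authors' counting used it is not given in the sources used here.

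Thrb was at 23.6, 22.4 and 24.7 FPKM in the controls and at 24.99, 26.4 and 26.6 FPKM in the triple-deficient libraries. Every triple-deficient library was above every control, with the closest pair, control 3 and triple-deficient 1, only slightly apart. The mean was 10.4% higher. The log2 change was 0.14 (SE 0.053, interval 0.02 to 0.26), with an unadjusted p of 0.0319 and an adjusted p of 0.921 in limma, so the difference did not pass over all genes, where Thrb ranked 495 by p. With each of 15 other settings the log2 change stayed between 0.10 and 0.17 and the adjusted p between 0.429 and 0.9999. The gene lies on chromosome 14 (17659225 to 18040097), and none of its exon bases is shared with another annotated gene. In bulk retina, fewer cells of a type and less RNA per cell cannot be told apart, and the reverse holds for a higher value.

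Thrb made up 16.2%, 16.5% and 17.3% of the summed Thra and Thrb FPKM in the controls and 18.0%, 18.9% and 19.5% in the triple-deficient libraries. The groups did not overlap, and the means were 16.7% ± 0.582 and 18.8% ± 0.738 (SD, n = 3), a difference of 2.12 percentage points. The exact two-sided permutation test gave p = 0.1, the smallest that this test can give for 3 against 3 libraries, so it cannot reach 0.05 here. The summed FPKM of both receptors was 141 ± 4.81 and 138 ± 1.76, and its groups overlapped. The receptors differ in base composition: the longest transcript of Thrb has a GC content of 44.1% and that of Thra 59.8%. After the trend of each library's deviations on GC content was removed, an alternative chosen after seeing the data, the share was 16.9%, 16.8% and 17.9% in the controls and 18.7%, 19.0% and 17.2% in the triple-deficient libraries. The difference was then 1.12 percentage points, and the groups overlapped, with triple-deficient 3 among the controls (exact permutation p = 0.2). Without triple-deficient 3 and with no such correction it was 1.78 percentage points. Removing the trend would also take out a genotype difference that follows GC content, and the part of base composition was not tested.

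**Figure D2:**
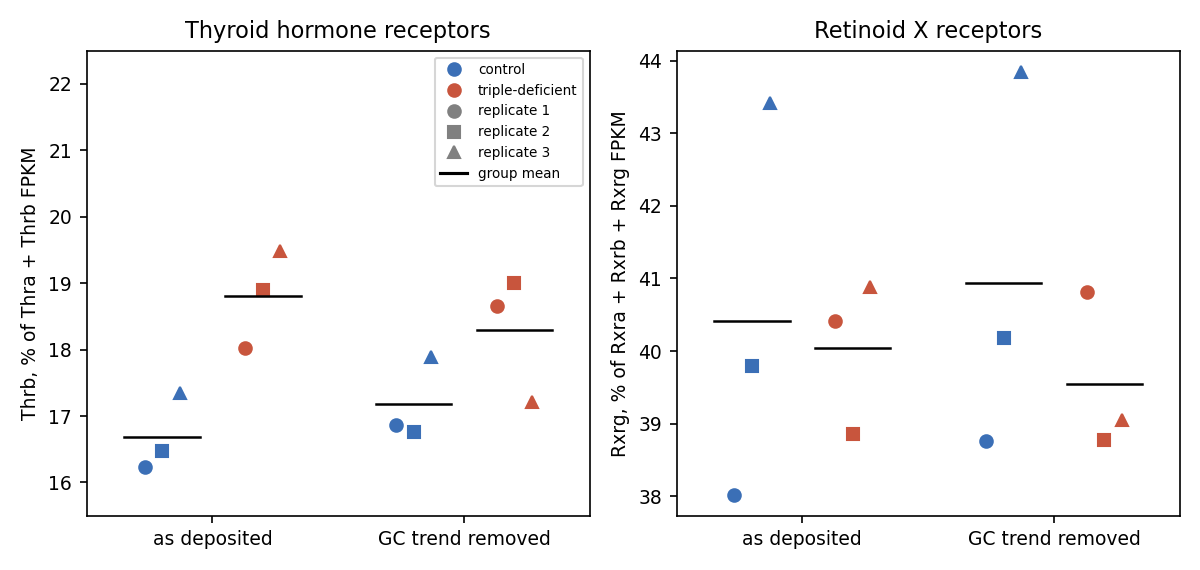
Share of Thrb in the summed FPKM of both thyroid hormone receptors (left, %) and of Rxrg in the summed FPKM of the 3 retinoid X receptors (right, %), for each library, as deposited and after removal of the GC trend, with a line at each group mean and axes that do not start at 0. As deposited, the triple-deficient libraries sit at 18.0% to 19.5% for Thrb, above the controls at 16.2% to 17.3%. With the trend removed, triple-deficient 3 drops to 17.2%, inside the control range.

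The retinoid X receptors were alike in showing no separation of the groups. Rxra was at 11.1, 9.60 and 10.1 FPKM in the controls and at 9.97, 10.7 and 9.85 FPKM in the triple-deficient libraries, with the highest and the lowest value both in controls (log2 change -0.01, interval -0.17 to 0.14, limma adjusted p = 0.993). Rxrb was at 31.5, 28.3 and 27.2 FPKM in the controls and at 28.4, 28.1 and 27.2 FPKM in the triple-deficient libraries. Control 1 was the highest for Rxra and Rxrb, and the other 5 libraries lay close together for Rxrb (log2 change -0.05, interval -0.19 to 0.09, limma adjusted p = 0.959).

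Rxrg, the partner of Thrb in cones, was at 26.2, 25.05 and 28.6 FPKM in the controls and at 26.0, 24.7 and 25.6 FPKM in the triple-deficient libraries. Control 3 was the highest and triple-deficient 2 the lowest, with the other 4 libraries in between. Its log2 change was -0.06 (SE 0.058, interval -0.19 to 0.07, limma adjusted p = 0.958). It was -0.009 without control 3 and -0.10 without control 2. Its share of the summed retinoid X receptor FPKM was 40.4% ± 2.75 in the controls and 40.0% ± 1.06 in the triple-deficient libraries (SD, n = 3; exact permutation p = 0.9). The difference of -0.36 percentage points turned to 1.14 without control 3 and to 0.23 without triple-deficient 2. The summed FPKM of all 3 was 65.9 ± 2.93 and 63.5 ± 0.864. Thrb lay below Rxrg in all 3 controls and in triple-deficient 1 and above it in triple-deficient 2 and 3, an order noticed after the values were seen and given without a test.

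**Figure D3:**
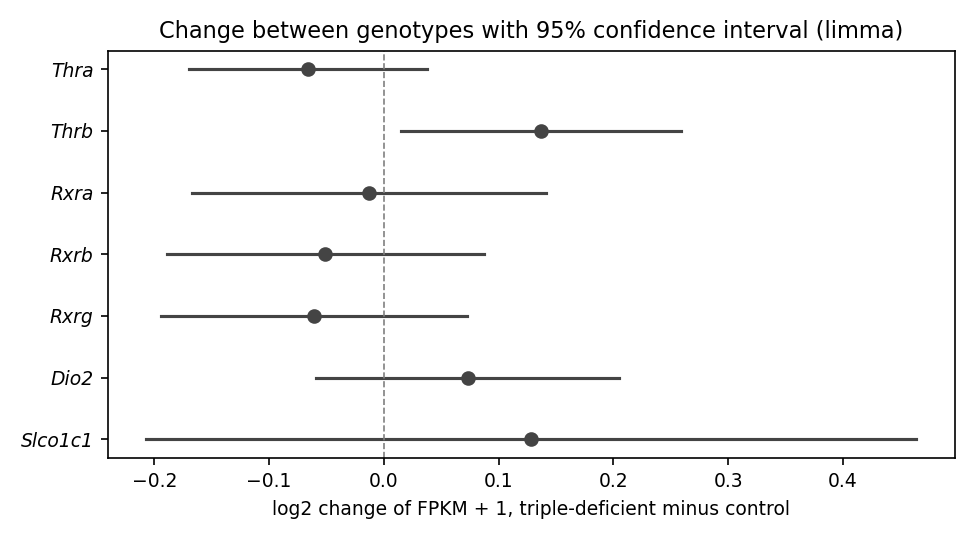
Log2 change of FPKM + 1, triple-deficient minus control, for the 7 genes that passed the filter, with points at the estimate and bars for the 95% confidence interval from limma. The interval of Thrb, 0.02 to 0.26, is the only one that leaves out 0, before any adjustment for the number of genes, and that of Slco1c1 is the widest.

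Among the enzymes and the transporter, Dio2, which makes the active hormone T3 inside cells, was at 10.4, 11.5 and 10.6 FPKM in the controls and at 11.7, 11.1 and 11.5 FPKM in the triple-deficient libraries. The groups overlapped, and control 1 was the lowest (log2 change 0.07, interval -0.06 to 0.21, limma adjusted p = 0.956). Dio3, which inactivates the hormone, was under the filter and was not tested. It was at 0.391, 0.177 and 0.0715 FPKM in the controls and at 0.122, 0.156 and 0.0909 FPKM in the triple-deficient libraries, which is an estimated 18, 9 and 3 fragments and 7, 7 and 3 fragments. Its values in the triple-deficient libraries all lay inside the control range. With no filter its log2 change was -0.10 (interval -0.32 to 0.11, limma adjusted p = 0.954).

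Slco1c1, which carries thyroxine across the capillary wall in brain, was at 2.12, 3.51 and 3.49 FPKM in the controls and at 3.36, 3.72 and 3.02 FPKM in the triple-deficient libraries. Control 1 stood below the other 5 libraries, and without it the log2 change of 0.13 (interval -0.21 to 0.46, limma adjusted p = 0.959) became -0.05. Endothelial markers, 10 of 10 tested, summed to 227, 229.9 and 241 FPKM in controls 1, 2 and 3, against 247, 243 and 224 FPKM in triple-deficient 1, 2 and 3, so triple-deficient 3 and not control 1 was the lowest. Of the endothelial markers 5 were lowest in triple-deficient 3 and 3 in control 1. Pericyte markers, which mark the outer cells of the same capillaries, were lowest in control 1 for 6 of 6 genes, and summed to 51.1 FPKM there and to 52.9 to 58.0 FPKM elsewhere. The share of all genes that were lowest in each library was not counted. The part of vascular cells in the low value of control 1 was not tested.

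The signs of the changes split by the base composition of the transcripts, which is described here for 7 genes without a test. Thrb, Dio2 and Slco1c1, with GC contents of 43.1% to 44.1%, had changes above 0, and Thra, Rxra, Rxrb and Rxrg, with GC contents of 54.6% to 61.4%, had changes below 0. With the GC trend of each library removed, Thra moved to 0.008, Rxra to 0.03 and Rxrb to 0.04, while Rxrg stayed below 0 at -0.04. Thrb was at 0.11, with an unadjusted p of 0.0471 and an adjusted p of 0.885 in limma, and Dio2 and Slco1c1 were at 0.05 and 0.10. These are changes on the log2(FPKM + 1) scale, and none passed over all genes. The trend was fitted to each library's deviations from the mean of all 6 libraries. Its removal would therefore also take out a genotype difference that follows GC content. The part of base composition in the changes was not tested. Without triple-deficient 3 and with no such correction, 6 of the 7 kept their sign, with -0.05 for Thra, -0.03 for Rxrb, -0.07 for Rxrg, 0.12 for Thrb, 0.07 for Dio2 and 0.19 for Slco1c1, and Rxra was at 0.007.

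**Figure D4:**
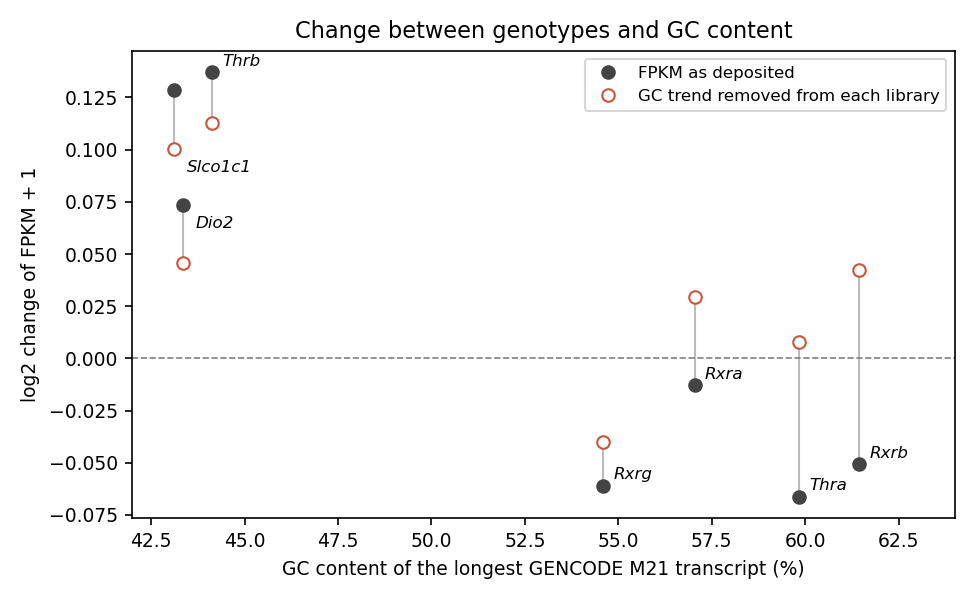
Log2 change of FPKM + 1 between the genotypes against the GC content (%) of the longest annotated transcript for the 7 tested genes, with filled points for the values as deposited and open points after removal of each library's GC trend, joined by a line for each gene. As deposited the 3 genes with low GC content lie above 0 and the 4 with high GC content below it, and after removal 3 of those 4 lie just above 0.

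The wider pathway was read from 6 lists, and no gene of any of them passed limma's adjusted threshold. These lists and the marker lists were chosen with earlier results of these data known. Their counts beside the shares of all genes are therefore descriptions and not tests. At an unadjusted p below 0.05 there were 1 of 13 tested genes of hormone transport and metabolism, 0 of 19 co-repressors and co-activators, 1 of 20 hormone-responsive genes, 2 of 27 other nuclear receptors, 0 of 13 genes of retinoic acid supply and 3 of 14 genes of dorsoventral patterning, beside 5.09% of all genes. Of 18 genes of hormone transport and metabolism beyond the members, 13 passed the filter, 6 with changes above 0 and 7 below, with a median of -0.02. Crym, a cytosolic protein that binds T3, was the most abundant at 176 ± 5.72 FPKM in controls, against 176 ± 5.08 FPKM in the other group. Slc7a5 and Slc3a2, the light and heavy chain of an amino acid transporter that also carries the hormone, were at 32.2 ± 1.22 and 44.3 ± 1.21 FPKM in controls, against 31.7 ± 1.57 and 42.2 ± 1.29 FPKM in the other group. Secisbp2, which allows selenocysteine to be built into the deiodinases, was at 13.2 ± 0.789 and 12.3 ± 0.395 FPKM.

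Ttr, a carrier of thyroxine and of retinol-binding protein, had the largest difference of that list. It was at 18.0, 17.4 and 12.1 FPKM in the controls and at 7.42, 8.37 and 10.6 FPKM in the triple-deficient libraries. All 3 triple-deficient libraries were below all 3 controls, with a log2 change of -0.77 (SE 0.161), an unadjusted p of 0.00127 and an adjusted p of 0.508 in limma. Ttr is also a marker of the retinal pigment epithelium, a layer next to the retina. Of 10 tested markers of that layer 7 had changes below 0 (median -0.20, where 48.2% of all genes were below 0). In limma 3 were at an unadjusted p below 0.05, against 5.09% of all genes. Ttr is itself 1 of the 10 and is included in each of these counts and in the next one. For 4 of the 10 all triple-deficient values lay below the controls, against 5.64% of all genes: Ttr and the melanosome genes Tyrp1, Pmel and Tyr, the last 3 named here after their values were seen. Tyrp1 was at 3.77, 3.11 and 3.50 FPKM in controls, against 1.49, 2.2 and 2.15 FPKM in the other group. Pmel was at 3.84 ± 1.42 FPKM in controls, against 1.61 ± 0.173 FPKM, and Tyr at 0.669 ± 0.21 against 0.408 ± 0.027 FPKM (SD, n = 3). Neither passed over all genes, but without control 3, which at 2.2 FPKM was the lowest control, Pmel did (log2 change -1.12, limma adjusted p = 0.0233). The 2 most abundant markers had changes above 0, with 0.15 for the channel Trpm3 and 0.24 for the melanin enzyme Dct, neither past the threshold. The summed level of all 12 markers, to which these contribute most, overlapped between the groups, at 89.7 to 109 FPKM and 84.6 to 105 FPKM, and none was at 0 in every library. The part of that tissue in the value of Ttr was not tested.

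The 19 co-repressors and co-activators of nuclear receptors were all tested, with 16 changes above 0, 3 below and a median of 0.03, where 51.8% of all genes were above 0. Their 95% intervals ran from -0.29 to 0.27. Control 3 was the lowest library for 10 of the 19 genes, and each other library for 1 to 3 of them. How often each library was the lowest over all genes was not counted. Ncor1, the co-repressor bound by receptors without hormone, was at 49.7 ± 2.43 and 50.8 ± 2.05 FPKM, and Hdac3, the deacetylase of its complex, at 45.7 ± 1.39 and 46.5 ± 1.59 FPKM. Gps2, a small subunit of the same complex, was at 33.2 ± 0.745 and 30.7 ± 1.73 FPKM and had the lowest p of the list (unadjusted 0.0702, adjusted 0.943 in limma). Prmt1, a methyltransferase that acts as a co-activator, was at 83.5 ± 4.19 and 88.3 ± 4.15 FPKM.

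Of 20 genes known to respond to thyroid hormone in brain, retina or other tissues, all were tested, with 8 changes above 0, 12 below and a median of -0.03. The cone opsins showed no separation. Opn1sw was at 1503, 1563 and 1568 FPKM in the controls and at 1406, 1565 and 1453 FPKM in the triple-deficient libraries. Opn1mw was at 47.8, 61.6 and 50.1 FPKM in the controls and at 51.3, 61.4 and 49.0 FPKM in the triple-deficient libraries. Library 2 of each group was the highest for Opn1mw, and this gene made up 3.32% ± 0.406 of the summed opsin FPKM in controls and 3.52% ± 0.256 in triple-deficient libraries (SD, n = 3; exact permutation p = 0.6).

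Hr, a co-repressor that T3 induces in brain, was at 99.9 ± 7.83 and 99.1 ± 9.10 FPKM, and Atp2a2, a calcium pump that T3 induces in heart, at 104 ± 3.07 and 106 ± 1.93 FPKM. Dbp, a clock output factor, was at 38.1, 41.8 and 42.4 FPKM in the controls and at 35.2, 33.8 and 29.6 FPKM in the triple-deficient libraries. Its groups did not overlap, and its log2 change of -0.30 had an unadjusted p of 0.00285 and an adjusted p of 0.651 in limma. Stard4, a carrier of cholesterol, was at 5.40 ± 0.464 and 6.09 ± 0.067 FPKM, also without overlap (limma adjusted p = 0.943). Groups without overlap were found for 1 higher and 2 lower genes of the 20, where 4.86% and 5.64% of all genes were so placed; the other was Klf9, a direct target of the receptors, at 46.9 to 50.3 and 44.9 to 46.5 FPKM, which is named here after its values were seen.

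**Figure D5:**
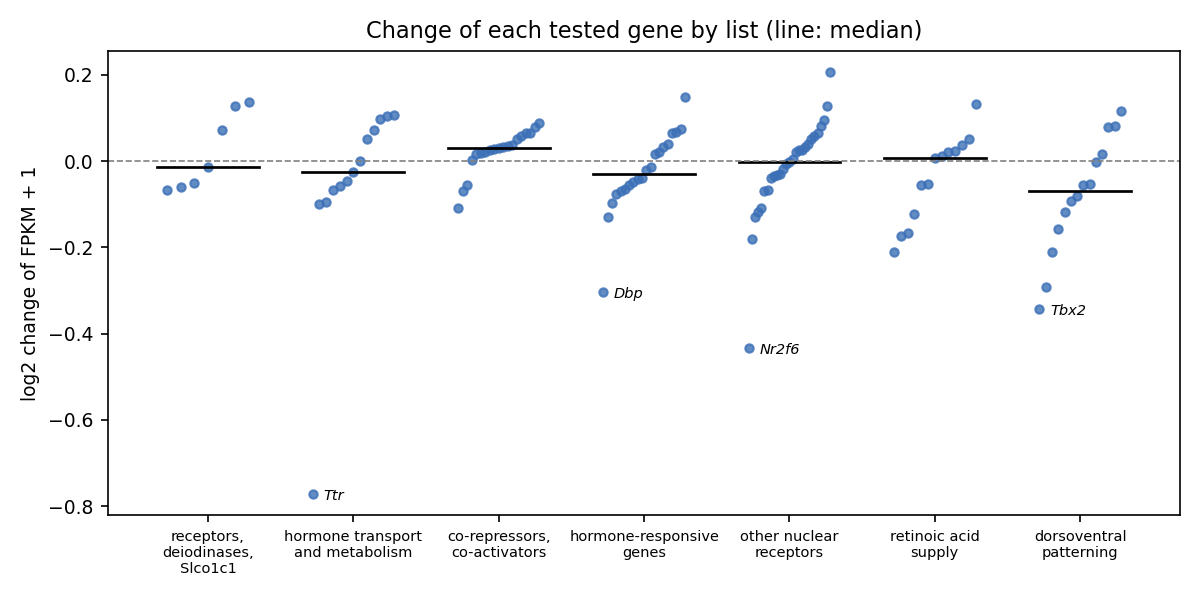
Log2 change of FPKM + 1, triple-deficient minus control, of every tested gene of the receptor, deiodinase and transporter set and of the 6 pathway lists, with a line at each median. The medians lie between -0.07 and 0.03, and the lowest points, Ttr, Nr2f6, Tbx2 and Dbp, did not pass over all genes.

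Other nuclear receptors, many of which also pair with retinoid X receptors, had a median of -0.002 over 27 tested genes of 32. Groups without overlap were found for 2 higher and 4 lower genes of the 27. Over all genes tested the shares were 4.86% and 5.64%. The most abundant besides Nr1d1, given above, were Nr1d2, a relative of Nr1d1, at 55.7 ± 1.23 and 58.0 ± 3.81 FPKM, and Esrrg, an orphan receptor, at 39.8 ± 0.795 and 40.9 ± 1.06 FPKM. Nr2f6, an orphan receptor of the COUP-TF family, was at 11.1, 9.69 and 10.9 FPKM in the controls and at 9.29, 7.88 and 5.86 FPKM in the triple-deficient libraries, with triple-deficient 3 the lowest. Its log2 change of -0.43 (unadjusted p 0.0121, adjusted p 0.836 in limma) was -0.26 with the GC trend removed and -0.27 without triple-deficient 3. Nr2e3, a receptor of rods, was at 3.67, 3.79 and 3.62 FPKM in the controls and at 4.23, 4.45 and 4.58 FPKM in the triple-deficient libraries, without overlap (log2 change 0.21, limma adjusted p = 0.836).

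Retinoic acid can bind retinoid X receptors in its 9-cis form, and 13 of 16 genes of its supply and breakdown were tested, with 7 changes above 0, 6 below and no group separation. Fabp5, Crabp1 and Rdh10, which carry retinoic acid or make its precursor, were at 57.0 ± 4.02, 44.8 ± 3.08 and 34.8 ± 2.08 FPKM in controls, against 58.5 ± 3.35, 45.2 ± 2.24 and 36.1 ± 2.14 FPKM in the other group. Cyp26a1, which degrades retinoic acid, was at 3.30 ± 0.139 and 2.83 ± 0.541 FPKM, and Rbp4, the retinol-binding protein, at 2.42 ± 0.229 and 2.05 ± 0.271 FPKM.

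The dorsoventral axis of the retina is the axis along which thyroid hormone signalling and the cone opsins vary. Of 14 tested genes of that axis 4 had changes above 0 and 10 below, with a median of -0.07, where 48.2% of all genes were below 0. Of all 17 genes listed 9 were lowest in triple-deficient 3, the library that stood apart in base composition. Another 4 were lowest in triple-deficient 2, and 2 each in controls 1 and 2. The matching shares over all genes were not counted. Tbx2, a dorsal T-box factor, was at 43.2, 39.4 and 37.9 FPKM in the controls and at 36.4, 32.0 and 26.6 FPKM in the triple-deficient libraries. Its groups did not overlap, with triple-deficient 3 the lowest (log2 change -0.34, unadjusted p 0.0109, adjusted p 0.836 in limma), and the change was -0.23 with the GC trend removed and also without triple-deficient 3. The ventral factor Vax2 was at 15.9, 13.9 and 15.3 FPKM in the controls and at 12.9, 14.0 and 9.84 FPKM in the triple-deficient libraries. Its log2 change of -0.29 (adjusted p 0.923 in limma) was -0.15 without triple-deficient 3. Tbx3 and Nr2f1, named here after their values were seen, were the other genes of the list whose triple-deficient values all lay below the controls, so that 3 of 14 were so placed beside 5.64% of all genes. Tbx3, a relative of Tbx2, was at 5.28, 5.07 and 5.24 FPKM in the controls and at 4.90, 4.35 and 4.42 FPKM in the triple-deficient libraries, and Nr2f1, a COUP-TF receptor, at 8.27 and 7.54 FPKM on average (limma unadjusted p = 0.0436 and 0.0750). Aldh1a1, the dorsal retinoic acid enzyme, was at 21.2 ± 0.813 and 20.4 ± 1.63 FPKM, and Ephb2, a ventral guidance receptor, at 16.1 ± 0.881 and 15.2 ± 1.14 FPKM.

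The genes most like Thrb in level across the 6 libraries, by Pearson correlation of log2(FPKM + 1) among the 10195 genes whose mean reached 5 FPKM, were Atg5 (0.99), Srp54a (0.98) and Brox (0.98). Atg5 is an autophagy factor and Srp54a a subunit of the signal recognition particle. For Rxrg they were Oser1 (0.99), Tufm (0.99), a mitochondrial elongation factor, and Fam219aos (0.98). Over only 6 libraries, which differ in depth and base composition, 104 genes reached 0.9 with Thrb and 74 with Rxrg, so these names describe the libraries only.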

How the data were processed

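Each of the 6 libraries has 1 table of FPKM values made by the authors, 1 per gene symbol. The submitters' processing notes name Cufflinks 2.2.1, Cuffdiff, Bowtie2 2.3.5.1, TopHat2 2.1.1 and build mm10, without roles or settings. No source used here gives the annotation, the strand setting or how libraries were scaled. FPKM were used as deposited. A limma model (3.58.1, R 4.3.3) with trended variance was fitted to log2(FPKM + 1) of the 14325 genes whose mean reached 0.5 FPKM, two-sided, with Benjamini-Hochberg adjustment over all of them and a threshold of 0.05. The fit was tested on simulated data. Depth was estimated from the steps of low values, and no counts were rebuilt. Shares were compared by exact permutation. Coordinates are RefSeq's for GRCm38.p6, and exon overlap and GC content (known for 99.2% of genes tested) are from GENCODE M21. The members and lists were chosen with earlier results of these data known. The genes named are the members, Ankrd33, Ankrd33b, Nrl, Opn1sw, Opn1mw and Nr1d1, and from each pathway list the 3 with the highest mean and the 2 with the smallest p, since none passed. Tyrp1, Pmel, Tyr, Klf9, Tbx3 and Nr2f1 were added for the text. Marker lists are given by their sums where they stand beside a result. Same-numbered libraries correlated only weakly in their deviations, which cannot exclude pairing, and no label says that a shared number marks littermates. Numbers were therefore not paired in the main fit.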

Additional observations from a re-analysis of the deposited data

How the results depend on the processing

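The members past the threshold numbered 0 in all 15 alternatives. Over all genes the 4 calls became 2 with no filter and 2 with robust shrinkage, and 3 to 11 when 1 library was left out: 7 without control 3, 10 without triple-deficient 1 and 11 without triple-deficient 3. Same-numbered libraries correlated at 0.002, 0.12 and 0.10 in their deviations, and differently numbered ones at -0.27 to 0.22. These values show no pairing but, with 3 libraries in each group, cannot exclude it. With the replicate block 4 genes passed over all genes and 0 members. The difference of the Thrb share, 2.12 percentage points, cannot move with the replicate block, where its exact permutation p was 0.25, the smallest that 3 pairs allow; it was 1.78 to 2.51 with 1 library left out. The Rxrg share ranged from -1.56 to 1.14 percentage points with 1 library left out. With no filter, no variance trend, robust shrinkage or the replicate block, the log2 change of a tested gene cannot move. Outside Ankrd33 and Ankrd33b no named gene passed in the main fit, and most adjusted p-values were far above the threshold. Keeping sign and side was therefore partly fixed in advance. Of 915 log2 changes of 61 named genes, 879 kept their sign and side of the threshold. Another 35, all of them of genes that did not pass, changed sign, and 1, of Pmel without control 3, came to pass. With the GC trend removed the values were 0.0076 for Thra, 0.0293 for Rxra, 0.0424 for Rxrb, -0.0084 for Crym, 0.0096 for Slc7a5 and 0.0825 for Hr. With array quality weights they were 0.0149 for Rxra, -0.0107 for Crym, -0.0134 for Ncor1, -0.0046 for Hdac3, 0.0212 for Hr and -0.0064 for Fabp5, and Crym was at -0.001 with median-ratio scaling. Leaving out 1 library gave -0.0557 to 0.042 for Rxra, -0.0939 to 0.0082 for Rxrb, -0.0478 to 0.218 for Slco1c1, -0.0748 to 0.13 for Opn1mw, -0.111 to 0.0065 for Nr1d1, -0.0221 to 0.0243 for Crym, -0.0634 to 0.0023 for Slc7a5, -0.0075 to 0.0608 for Ncor1, -0.0023 to 0.0489 for Hdac3, -0.0702 to 0.0649 for Hr, -0.0124 to 0.0877 for Fabp5, -0.0251 to 0.0658 for Crabp1 and -0.0975 to 0.009 for Aldh1a1. The cause of these moves was not tested. Dio3 rests on an estimated 3 to 18 fragments per library.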
